A study of Mus musculus with 10 samples.

Results

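The genes described here are 10 regulators of Wnt signalling and of pericentral zonation in mouse liver, namely the Wnt ligands Wnt2 and Wnt9b, the R-spondin Rspo3, its receptor Lgr5, the ubiquitin ligases Rnf43 and Znrf3, the feedback inhibitor Axin2, the transcription factor Tbx3, and the zonated hepatocyte genes Lhpp and Rhbg. They were chosen by name, and 9 of the 10 were matched among the 38922 genes of each deposited table. The identifier of Rhbg, which encodes an ammonium transporter, was not matched and this gene was not analysed here. RNA was sequenced from whole livers of wild-type male C57BL/6N mice aged 6 weeks. A group of 5 mice received an intraperitoneal injection of 0.5 µg/g of an antibody that activates the death receptor CD95 (CD95-Ab), also known as Fas, and 5 controls received an equal volume of saline. Livers were taken 6 h later, with 1 library per mouse. No mouse carried a transgene, and the labels describe no control antibody, so an effect of antibody injection as such and of CD95 activation cannot be told apart.

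Canonical Wnt signalling begins when a secreted Wnt ligand binds a Frizzled receptor, which stops the destruction complex from degrading β-catenin and lets it act with TCF factors on target genes. R-spondins bound to LGR receptors strengthen the signal by removing RNF43 and ZNRF3 from the cell surface, where these ligases otherwise clear Frizzled receptors. In the liver lobule, endothelial cells of the central vein and neighbouring sinusoids supply Wnt2, Wnt9b and Rspo3, and the hepatocytes around the vein respond with the pericentral programme, of which the glutamine synthetase gene Glul is the classic marker.

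Compared to saline-injected controls, livers of mice injected with CD95-Ab had more Rspo3 RNA and less Rnf43, Tbx3, Axin2 and Znrf3 RNA. Lgr5, Wnt2, Wnt9b and Lhpp did not pass the test. Thus 5 of the 9 genes passed an FDR of 0.05 in edgeR's quasi-likelihood test with Benjamini-Hochberg adjustment, 1 higher and 4 lower, where 47.3% of all 13719 genes tested passed (25.4% higher and 22.0% lower). None of the 9 also had a log2 fold change of at least 2 either way, a size reached with the FDR by 7.7% of all genes tested. Counts per mouse for these genes lay between 4 and 3206. Levels are given as CPM, the counts per 1000000 of the adjusted total of each library.

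Libraries held 25965699 to 62097636 counts in saline mice and 27480796 to 44962196 in CD95-Ab mice, so 3 counts corresponded to 0.0483 to 0.116 CPM. Markers of several cell types moved with the treatment. The summed level of 10 hepatocyte markers was 135169 to 154248 CPM in saline mice and 77216 to 118856 CPM in CD95-Ab mice. Singly these 10 did not move one way. In edgeR 1 rose, 3 fell and 6 did not pass (40.0% called, beside 47.3% of all genes), with log2 fold changes of -1.03 to 0.87. In saline mice the summed level was 93.2 to 215.6 CPM for 12 sinusoidal endothelial markers, 129 to 184 CPM for 8 stellate cell markers and 4.08 to 10.5 CPM for 7 neutrophil markers. In CD95-Ab mice the same sums were 291.9 to 538.2, 222 to 366 and 109 to 435 CPM. The 6 cholangiocyte markers summed to 18.4 to 33.8 CPM and 48.6 to 188 CPM, and the 6 lymphocyte markers to 1.04 to 3.62 CPM and 4.36 to 11.5 CPM. For each of these lists the groups did not overlap (exact permutation p = 0.00794, two-sided, 0.00893 adjusted over 9 lists), whereas the 6 Kupffer cell markers overlapped, at 111 to 387 CPM and 212 to 515 CPM (exact permutation p = 0.0714). No marker in these 7 lists was at or under 3 counts in every mouse. A list of 8 RNAs without a poly(A) tail summed to 1.72 to 4.15 CPM in saline and 377 to 1337 CPM in CD95-Ab mice, with Terc, Rny1 and Rny3 at 3 counts or fewer in every mouse. These sums did not overlap either (exact permutation p = 0.00794, two-sided, 0.00893 adjusted over 9 lists), so the share of these RNAs in the libraries differed between the groups. Whether RNA quality or library preparation differed with the treatment, and its part in the fold changes, was not tested. The remaining list, central vein endothelium, is given with Rspo3. In whole liver, a smaller number of cells of a type and less RNA per cell cannot be told apart.

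The genes differed widely in abundance. By the deposited FPKM, which are scaled for transcript length, the order in saline mice was Lhpp at 27.6 ± 4.58 FPKM (SD, n = 5), Tbx3 at 7.28 ± 2.86, Rnf43 at 4.71 ± 1.43, Znrf3 at 1.70 ± 0.168, Axin2 at 1.41 ± 0.560, Rspo3 at 1.0 ± 0.168, Lgr5 at 0.854 ± 0.192, Wnt2 at 0.688 ± 0.515 and Wnt9b at 0.128 ± 0.0998 FPKM. Only the steps from Lhpp to Tbx3 and from Rnf43 to Znrf3 separated all saline mice, and each other pair of neighbours in this order overlapped.

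**Figure D1:**
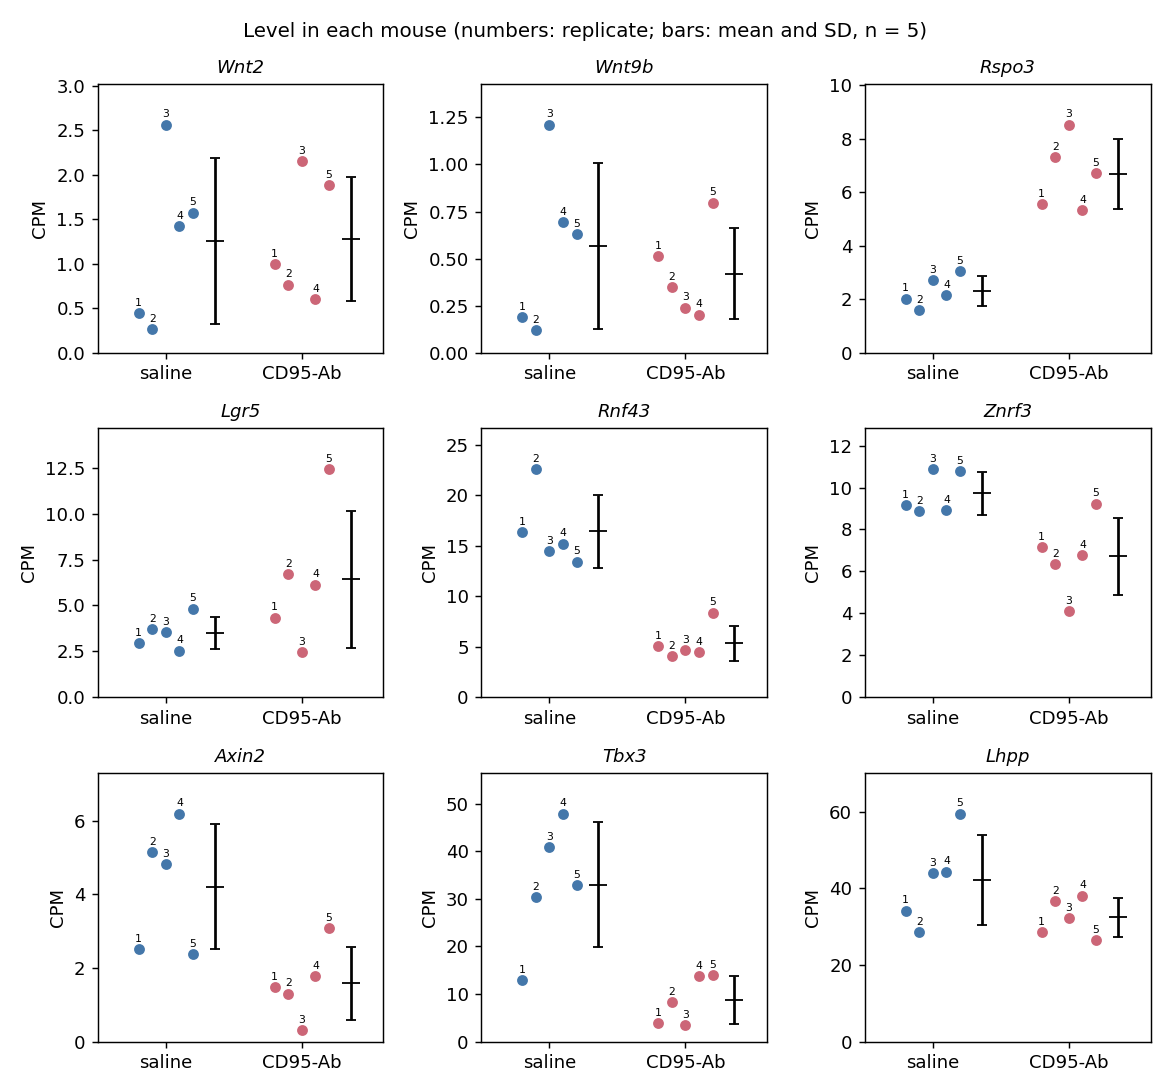
Level of each gene in each mouse in CPM, with saline mice in blue and CD95-Ab mice in red, small numbers giving the replicate, and black bars the mean and SD of 5 mice. Each panel starts at 0 and has its own scale. Rspo3 (higher) and Rnf43 (lower) separated the groups completely, whereas the other genes overlapped.

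Rspo3 encodes the secreted R-spondin that endothelial cells of the central vein and stellate cells make in the liver. The gene lies on the minus strand of chromosome 10 (GRCm38, chr10:29452416-29535867). Its level was 2.02, 1.6, 2.70, 2.16 and 3.04 CPM in saline mice 1 to 5 and 5.55, 7.29, 8.52, 5.33 and 6.71 CPM in CD95-Ab mice 1 to 5. Every CD95-Ab mouse was above every saline mouse, a separation seen in either direction for 33.3% of all genes tested and upwards for 18.6%. The mean rose from 2.30 ± 0.570 to 6.68 ± 1.31 CPM (SD, n = 5). On the log2 scale edgeR gave 1.53 ± 0.21 (SE), or 2.88-fold higher, with an FDR of 0.000103.

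The endothelial marker lists rose as well. The 12 sinusoidal markers, which include the hyaluronan receptor Lyve1 and the junction gene Cdh5, had a mean log2 level 1.28 higher in CD95-Ab mice. They did not rise evenly, as their single log2 fold changes in edgeR were 0.04 to 3.41 with a median of 0.95, and 3 did not pass. Expressed relative to the mean log2 level of the 12 markers, the log2 ratio of Rspo3 was higher by 0.23 and the groups overlapped (exact permutation p = 0.111, two-sided, 0.143 adjusted over 9 genes). With a pseudocount of 1 in place of 0.1, this difference was 0.0087 (exact permutation p adjusted = 0.968), so no direction is read from it. Rspo3 was highest in CD95-Ab 3, the mouse with the highest sinusoidal marker sum, 538.2 CPM. Within groups, with group means removed, Rspo3 and the sinusoidal markers had a Pearson r of 0.89 over the 10 mice, which share library and depth. Relative to the 8 stellate markers, a comparison added after the values were seen, Rspo3 was higher by 0.41 on the log2 scale and did not pass (exact permutation p adjusted over 9 genes = 0.0918). An antisense gene, Gm48159, overlaps Rspo3 and was not analysed here. The part of cell composition in the rise of Rspo3 was not tested beyond these ratios.

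The central vein list held 6 genes, namely Rspo3, Wnt2 and Wnt9b themselves with the thrombomodulin gene Thbd, the cadherin gene Cdh13 and the receptor tyrosine kinase gene Kit. Its sum was 3.38 to 18.7 CPM in saline mice and 54.5 to 128.5 CPM in CD95-Ab mice. The last 3 genes rose, with log2 fold changes of 4.10 for Thbd (FDR = 0.000152), 1.92 for Cdh13 (FDR = 0.00256) and 2.10 for Kit (FDR = 0.00129) in edgeR. Thbd, Cdh13 and Kit are not specific to the central vein. Relative to these 3, a comparison added after the values were seen, Rspo3 was lower by 1.37 on the log2 scale (exact permutation p adjusted over 9 genes = 0.0179). The rises of these 3 genes were already known, so this ratio is a description.

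Wnt2, one of the liver's endothelial Wnt ligands, lies on the minus strand of chromosome 6 (GRCm38, chr6:17988940-18030585). It was measured at 0.447, 0.267, 2.56, 1.42 and 1.58 CPM in saline mice 1 to 5 and at 0.995, 0.764, 2.15, 0.605 and 1.88 CPM in CD95-Ab mice 1 to 5. These levels rest on 9 to 91 counts per mouse. Both groups spread widely and overlapped, with saline 2 lowest and saline 3 highest. The log2 fold change was 0.03 (95% interval -1.17 to 1.24, FDR = 0.965 in edgeR), an interval that did not reach the estimate of 1.53 for Rspo3.

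Wnt9b, the other endothelial ligand, lies on the minus strand of chromosome 11 (GRCm38, chr11:103727364-103749821) and was the least abundant of the 9 genes. It was measured at 0.188, 0.119, 1.21, 0.693 and 0.630 CPM in saline mice and at 0.513, 0.350, 0.239, 0.202 and 0.797 CPM in CD95-Ab mice, from 4 to 43 counts per mouse. The groups overlapped, and saline 2 and saline 3 were again the lowest and the highest. The log2 fold change was -0.37 (95% interval -1.63 to 0.88, FDR = 0.619 in edgeR), and a difference within this interval was not detectable at this depth and spread.

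In saline mice Wnt2 and Wnt9b varied together, with a Pearson r of 0.996 over 5 mice on the log2 scale, whereas r was 0.38 in the CD95-Ab mice. The coefficient of variation in saline mice was 74.2% for Wnt2 and 77.7% for Wnt9b, against 24.8% for Lgr5 and 10.5% for Znrf3. Relative to the sinusoidal markers, the log2 level was lower in CD95-Ab mice by 1.05 for Wnt2 (exact permutation p = 0.0635, 0.0952 adjusted over 9 genes) and by 1.46 for Wnt9b (exact permutation p = 0.0317, 0.0952 adjusted). Neither ratio passed the threshold. Relative to Thbd, Cdh13 and Kit, the ratios were lower by 2.66 for Wnt2 and 3.06 for Wnt9b (each exact permutation p adjusted = 0.0179). This comparison was added after the values were seen. Those genes had risen while Wnt2 and Wnt9b had not passed, so lower ratios followed from values already known. The ratio of Rspo3 to Wnt2 was higher by 1.28 ± 0.49 (SE) on the log2 scale in CD95-Ab mice, with overlapping groups. This is 1 of 6 ratios between genes that were chosen after the values were seen, so these ratios are a description and carry no test.

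**Figure D2:**
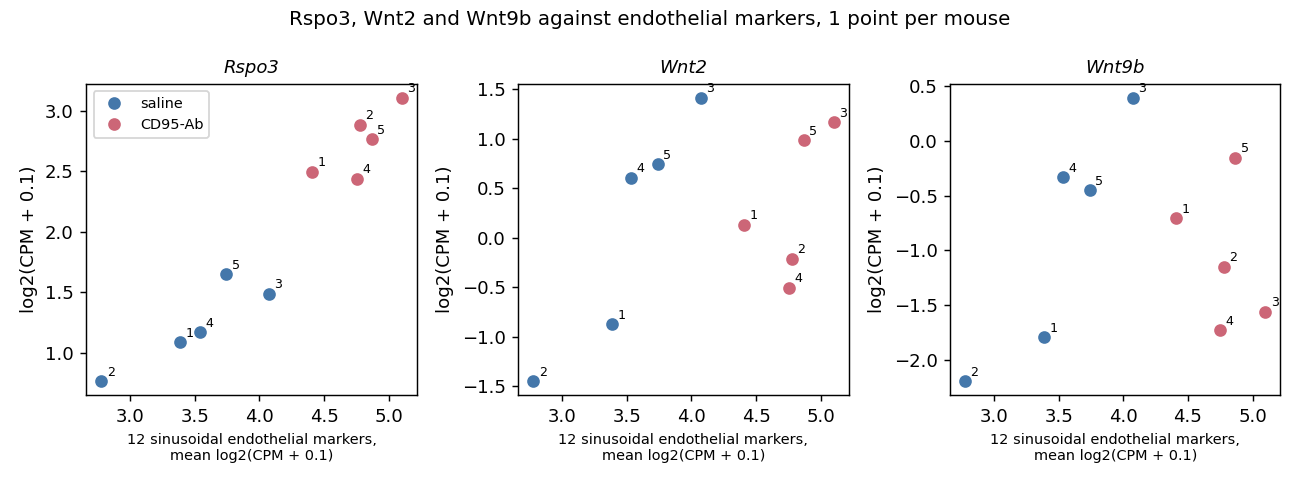
Level of Rspo3, Wnt2 and Wnt9b as log2(CPM + 0.1) against the mean log2(CPM + 0.1) of 12 sinusoidal endothelial markers, with 1 point per mouse, saline in blue, CD95-Ab in red, and numbers giving the replicate. Rspo3 and the markers were both higher in all 5 CD95-Ab mice, whereas the CD95-Ab mice lay within the saline range for Wnt2 and Wnt9b.

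The whole list of ligand and secretion genes, Wnt2 and Wnt9b included, held 21 genes, of which 9 were abundant enough to test. Of these, 2 rose and 2 fell (44.4% called, beside 47.3% of all genes). Wls, which carries Wnt proteins to the cell surface, rose from 2.86 ± 0.348 to 6.16 ± 0.894 CPM (SD, n = 5, log2 fold change 1.11, FDR = 0.000124 in edgeR). Wnt5a, a ligand best known for β-catenin-independent signalling, rose with a log2 fold change of 1.03 (FDR = 0.00452), whereas Wnt5b fell by 0.88 on the log2 scale (FDR = 0.0266), a call lost without saline 3, CD95-Ab 2, CD95-Ab 3 or CD95-Ab 4 (FDR = 0.0520 to 0.0659). Porcn, the acyltransferase that makes Wnt proteins fit for secretion, fell by 0.75 on the log2 scale (FDR = 0.00893). The remaining 12 genes of this list were Wnt ligands with at most 7 counts in any mouse.

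Lgr5, an R-spondin receptor expressed by pericentral hepatocytes and itself a Wnt target, lies on the minus strand of chromosome 10 (GRCm38, chr10:115450311-115587780). Its level was 2.94, 3.71, 3.55, 2.54 and 4.82 CPM in saline mice 1 to 5 and 4.33, 6.72, 2.47, 6.14 and 12.4 CPM in CD95-Ab mice 1 to 5. CD95-Ab 5 stood highest and CD95-Ab 3 lowest of all 10 mice. The mean was 3.51 ± 0.869 CPM in saline and 6.42 ± 3.75 CPM in CD95-Ab mice (SD, n = 5), and the log2 fold change of 0.87 ± 0.35 (SE) did not pass in edgeR (FDR = 0.0611). The call depended on the tool and on single mice: the FDR was 0.0385 in DESeq2, 0.0380 in edgeR's likelihood ratio test, 0.0488 without saline 5 and 0.0137 without CD95-Ab 3. Without CD95-Ab 5 the log2 fold change was 0.48, the smallest value over the 10 fits that each left out 1 mouse.

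Lgr4, the more abundant R-spondin receptor of the liver, fell from 58.2 ± 7.85 to 39.1 ± 10.6 CPM (SD, n = 5), and edgeR gave -0.57 ± 0.18 (SE) on the log2 scale with an FDR of 0.0222, which was 0.0596 without CD95-Ab 2. In the R-spondin module as a whole, 6 of 9 genes were tested. Rspo3 rose, Lgr4, Rnf43 and Znrf3 fell, and Lgr5 and Rspo1 did not pass (66.7% called, beside 47.3% of all genes).

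Rnf43 and Znrf3 encode the paired ubiquitin ligases that remove Frizzled receptors and are induced by Wnt signalling as negative feedback. Rnf43 lies on the plus strand of chromosome 11 (GRCm38, chr11:87662722-87735539) and was at 16.3, 22.6, 14.5, 15.2 and 13.4 CPM in saline mice and 5.07, 4.08, 4.62, 4.48 and 8.37 CPM in CD95-Ab mice. Every CD95-Ab mouse was below every saline mouse, which held downwards for 14.7% of all genes tested. The mean was lower, at 5.32 ± 1.74 against 16.4 ± 3.61 CPM (SD, n = 5). On the log2 scale edgeR gave -1.61 ± 0.22 (SE), or 3.06-fold lower, with an FDR of 0.000101. This call held in all 10 fits that each left out 1 mouse, with log2 fold changes of -1.84 to -1.48.

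Znrf3 lies on the minus strand of chromosome 11 (GRCm38, chr11:5276324-5444847) and was at 9.15, 8.86, 10.9, 8.93 and 10.8 CPM in saline mice and 7.16, 6.34, 4.10, 6.78 and 9.23 CPM in CD95-Ab mice. The groups overlapped through CD95-Ab 5, which exceeded 3 saline mice. The mean was 9.72 ± 1.02 CPM in saline and 6.72 ± 1.84 CPM in CD95-Ab mice (SD, n = 5). In edgeR the log2 fold change was -0.53 ± 0.19 (SE), or 1.44-fold lower, with an FDR of 0.0344. The call was lost in 5 of the 10 fits that left out 1 mouse, namely without saline 3, saline 5, CD95-Ab 1, CD95-Ab 2 or CD95-Ab 4, where the FDR was 0.0502 to 0.0746. The ratio of Rnf43 to Znrf3 was lower by 1.06 ± 0.24 (SE) on the log2 scale in CD95-Ab mice, with no overlap, a description of a pair chosen after its values were seen.

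Axin2, a scaffold of the destruction complex whose transcription is the usual readout of canonical Wnt signalling, lies on the plus strand of chromosome 11 (GRCm38, chr11:108920349-108950783). Its level was 2.52, 5.16, 4.82, 6.20 and 2.37 CPM in saline mice 1 to 5 and 1.48, 1.31, 0.318, 1.78 and 3.08 CPM in CD95-Ab mice 1 to 5. CD95-Ab 3 was the lowest mouse, with 8 counts, and CD95-Ab 5 the only one above any saline mouse, exceeding saline 1 and saline 5. The CD95-Ab mean of 1.59 ± 0.995 CPM was below the saline mean of 4.21 ± 1.69 CPM (SD, n = 5). In edgeR the log2 fold change was -1.37 ± 0.45 (SE), or 2.59-fold lower, with an FDR of 0.0256. The FDR was 0.0603 without saline 4, 0.0509 without CD95-Ab 1 and 0.0598 without CD95-Ab 2, so the call did not hold without each of these mice.

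Both Axin2 and Lgr5 are counted as Wnt targets. As a description, the log2 ratio of Lgr5 to Axin2 was higher by 2.21 ± 0.43 (SE) in CD95-Ab mice, with no overlap. Within the CD95-Ab group Axin2 and Lgr5 ranged together, with a Pearson r of 0.92 over 5 mice, whereas r was -0.49 in saline mice. Over the 10 mice, with group means removed, r was 0.87 for Lgr5 and Znrf3, 0.75 for Axin2 and Znrf3, and 0.73 for Axin2 and Tbx3. In the CD95-Ab group, mouse 5 was the highest for Axin2, Lgr5, Rnf43, Znrf3, Tbx3 and Wnt9b, and mouse 3 the lowest for Axin2, Lgr5, Znrf3 and Tbx3. Mouse 5 had the lowest hepatocyte marker sum of this group, 77216 CPM, and mouse 3 the highest, 118856 CPM. Over the 10 mice, with group means removed, r was -0.91 for Axin2 and the hepatocyte markers. These values share library and depth and are a description, and the part of composition in them was not tested.

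**Figure D3:**
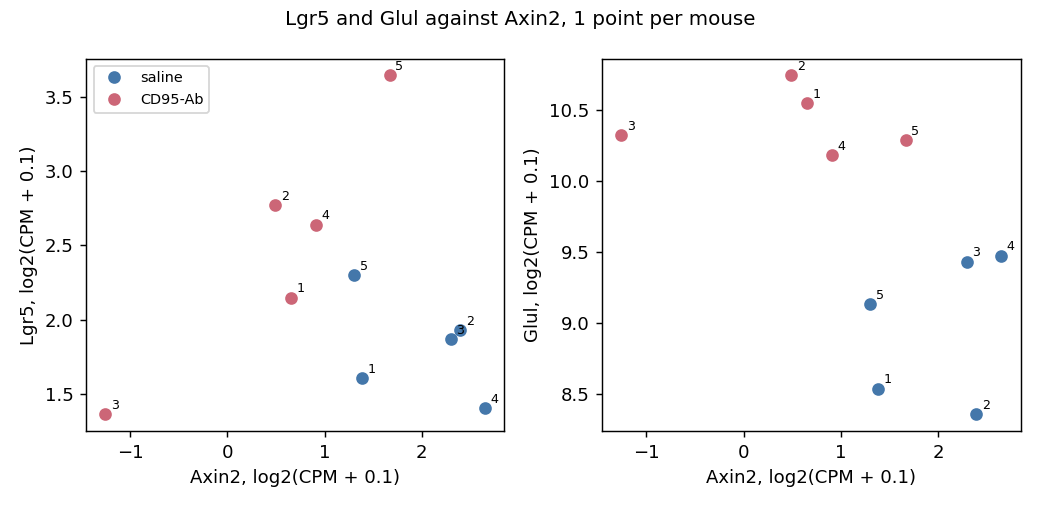
Lgr5 (left) and Glul (right) against Axin2, all as log2(CPM + 0.1), with 1 point per mouse, saline in blue, CD95-Ab in red, and numbers giving the replicate. The CD95-Ab mice lay towards lower Axin2 and, for Glul, above all saline mice, and CD95-Ab 3 had the lowest value of both Axin2 and Lgr5.

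Axin2 and Rnf43 are shown by their promoters, since both feedback genes fell and are known to be controlled by TCF and β-catenin. The windows run from 250 bases before to 50 bases after the start of transcription in RefSeq (GRCm38.p6), both on the plus strand, at chr11:108920099-108920398 for Axin2 and chr11:87662837-87663136 for Rnf43, which has another listed start further downstream, and the capital marks the first transcribed base.
Axin2: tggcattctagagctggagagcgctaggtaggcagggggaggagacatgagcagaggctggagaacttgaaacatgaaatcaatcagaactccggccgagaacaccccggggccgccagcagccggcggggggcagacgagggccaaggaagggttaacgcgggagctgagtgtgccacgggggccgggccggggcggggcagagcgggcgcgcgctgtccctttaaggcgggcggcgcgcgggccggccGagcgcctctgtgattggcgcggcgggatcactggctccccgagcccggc
Rnf43: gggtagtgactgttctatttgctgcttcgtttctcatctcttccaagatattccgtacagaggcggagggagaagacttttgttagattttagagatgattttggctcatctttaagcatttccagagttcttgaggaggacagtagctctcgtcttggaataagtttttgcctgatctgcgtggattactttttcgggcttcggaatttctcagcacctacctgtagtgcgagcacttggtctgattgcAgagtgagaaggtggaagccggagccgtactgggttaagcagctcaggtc
The Axin2 window was 70.0% G and C with 31 CG dinucleotides, and the Rnf43 window 46.7% with 10, against a median of 52.7% over all 32851 promoters of the table. The TCF motif letters CTTTGAT and CTTTGTT, searched on both strands, were absent from all 5 windows available for 4 of the genes (Axin2, Rnf43, Wnt2 and Wnt9b), while 9.33% of all promoters held one or the other, 3.73% CTTTGAT and 5.85% CTTTGTT. No match says only that these letters are not in this window.

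Tbx3, a T-box transcription factor and Wnt target of pericentral hepatocytes, lies on the plus strand of chromosome 5 (GRCm38, chr5:119670669-119684724). Its level was 12.9, 30.3, 40.9, 47.9 and 32.9 CPM in saline mice 1 to 5 and 3.92, 8.28, 3.54, 13.8 and 14.0 CPM in CD95-Ab mice 1 to 5. The groups overlapped only through saline 1, the lowest control, which lay under CD95-Ab 4 and CD95-Ab 5. The mean fell from 33.0 ± 13.2 to 8.72 ± 5.11 CPM (SD, n = 5). The edgeR fold change was the largest of the 9 genes, with a log2 value of -1.91 ± 0.43 (SE), or 3.77-fold lower (FDR = 0.00351). An antisense gene, Tbx3os1, overlaps Tbx3 but had at most 6 counts in any mouse, and the antisense gene Gm11670 at Axin2 had 0.

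Lhpp, a phosphohistidine phosphatase gene with pericentral expression, lies on the plus strand of chromosome 7 (GRCm38, chr7:132610638-132706420). It was at 34.2, 28.6, 43.9, 44.3 and 59.4 CPM in saline mice and 28.5, 36.7, 32.2, 38.1 and 26.6 CPM in CD95-Ab mice, and the groups overlapped. The mean was 42.1 ± 11.8 and 32.4 ± 5.0 CPM (SD, n = 5), with a log2 fold change of -0.38 (95% interval -0.79 to 0.03, FDR = 0.117 in edgeR). Without composition factors the FDR was 0.0307, and without saline 2 it was 0.0381. Relative to Tbx3, Lhpp was higher by 1.67 ± 0.51 (SE) on the log2 scale in CD95-Ab mice, again as a description.

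Expressed relative to the mean log2 level of the 10 hepatocyte markers, which was lower by 0.35 in CD95-Ab mice, the log2 difference was -1.66 for Tbx3 (exact permutation p = 0.0238), -1.28 for Rnf43 (exact permutation p = 0.00794), -1.17 for Axin2 (exact permutation p = 0.0476), -0.22 for Znrf3 (exact permutation p = 0.508) and 1.04 for Lgr5 (exact permutation p = 0.0556). For Lhpp the difference was 0.00 (exact permutation p = 1), and -0.13 to 0.13 when 1 mouse was left out. The 10 markers behind this mean had single log2 fold changes of -1.03 to 0.87. Only the ratio of Rnf43 separated all mice. None passed after adjustment over the 9 genes, where the smallest exact p of 0.00794 became 0.0714.

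**Figure D4:**
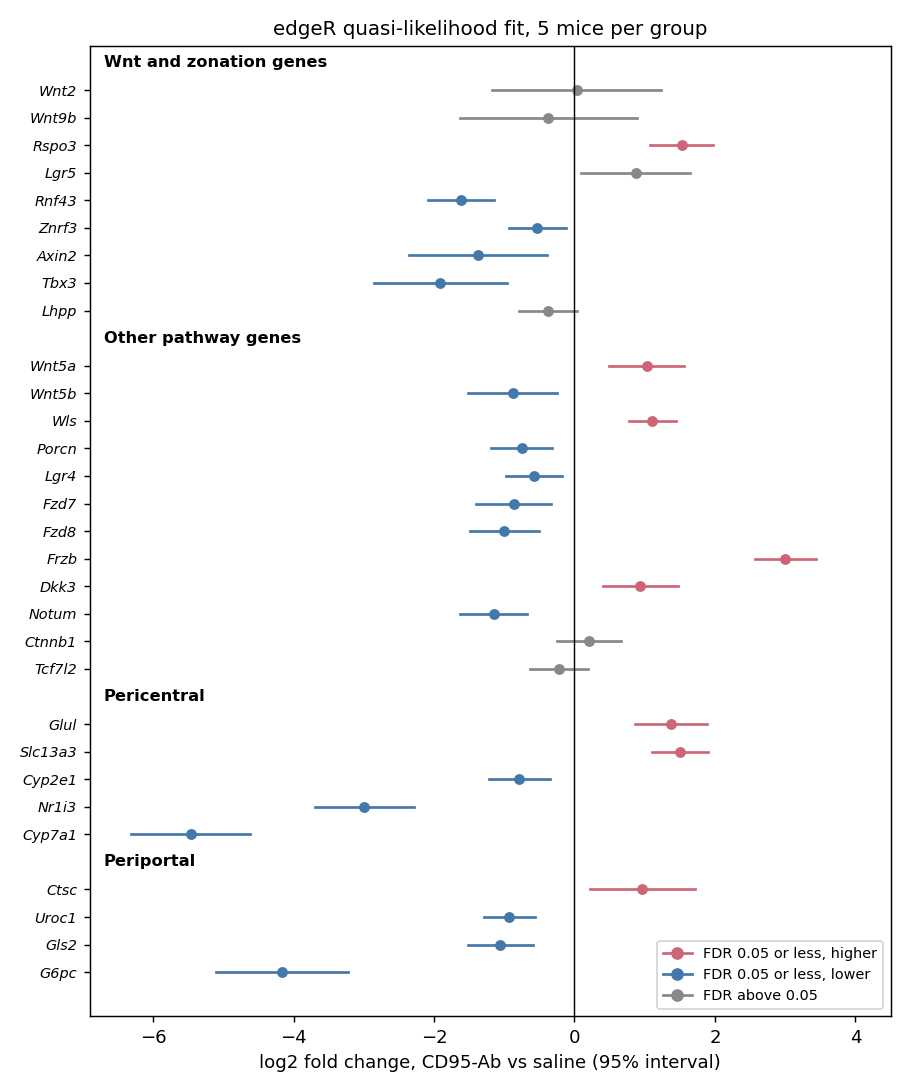
Log2 fold change of CD95-Ab against saline mice for the 9 genes and for named genes of the pathway and zonation lists, from the edgeR quasi-likelihood fit. Points are estimates and lines 95% intervals, in red for genes higher and blue for genes lower at an FDR of 0.05, and in grey otherwise. Rspo3 lay to the right of 0, Axin2, Rnf43, Znrf3 and Tbx3 to the left, and the interval of Ctnnb1 covered 0.

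Neither β-catenin nor its main hepatic partner passed the test. Ctnnb1, which encodes β-catenin, was at 145 ± 39.7 CPM in saline and 168 ± 25.3 CPM in CD95-Ab mice (SD, n = 5), and its log2 fold change was 0.21 (95% interval -0.25 to 0.66, FDR = 0.44 in edgeR). Tcf7l2, the main TCF factor of hepatocytes, had a log2 fold change of -0.22 (95% interval -0.63 to 0.19, FDR = 0.358). Among 21 tested genes of the destruction complex and cytoplasmic signalling, 5 rose and 3 fell (38.1% called, beside 47.3% of all genes), the casein kinase gene Csnk1e having a log2 fold change of 1.16 (FDR = 5.64e-05) and Btrc, a ubiquitin ligase component that recognises β-catenin, falling by 0.55 on the log2 scale (FDR = 0.00193). Among 16 nuclear factors, 3 rose and 4 fell (43.8% called). Without CD95-Ab 1 or CD95-Ab 2 only 1 gene of the destruction complex list was lower, and without saline 1 only 1 nuclear factor was higher. The co-repressor gene Tle3 rose with a log2 fold change of 1.47 (FDR = 0.000583), and the co-activator gene Bcl9l fell by 0.74 on the log2 scale (FDR = 0.00121).

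At the cell surface, 2 of 14 tested receptor and co-receptor genes rose and 5 fell, where 47.3% of all genes passed (25.4% higher and 22.0% lower). The receptor genes that fell included the Frizzled genes Fzd7 (log2 fold change -0.87, FDR = 0.0123 in edgeR) and Fzd8 (-1.0, FDR = 0.00336). Of 5 tested inhibitor genes, 2 rose and 1 fell (60.0% called, beside the same 47.3%). Frzb, a secreted Wnt-binding protein, rose in CD95-Ab mice from 0.925 ± 0.249 to 7.49 ± 0.932 CPM (SD, n = 5, log2 fold change 3.0, FDR = 9.35e-07), and Dkk3 rose with a log2 fold change of 0.94 (FDR = 0.00785). Notum, which encodes an enzyme that strips the lipid from Wnt proteins and is a Wnt target in pericentral hepatocytes, fell from 24.4 ± 7.45 to 11 ± 2.03 CPM (log2 fold change -1.15, FDR = 0.00109).

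General Wnt target genes did not move one way, as 4 of 15 tested rose and 6 fell (66.7% called, beside 47.3% of all genes). Leaving out a mouse gave 3 to 6 higher and 4 to 6 lower. Those that rose included Myc (log2 fold change 3.78, FDR = 4.08e-06 in edgeR), Cd44 (2.62, FDR = 9.6e-05) and Jun (1.62, FDR = 0.0162), which many other signals also induce. Lef1, which is also in the list of nuclear factors, rose as well (log2 fold change 0.85, FDR = 0.0180). Its groups did not overlap, at no more than 32 counts in any mouse. Those that fell were Axin2, Rnf43, Znrf3, Tbx3, Notum and Tnfrsf19, whose log2 fold change was -1.03 (FDR = 0.00184).

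Of 21 tested pericentral hepatocyte genes, 3 rose and 6 fell (42.9% called, beside 47.3% of all genes). The number lower depended on 1 mouse and on scaling, as it was 12 without saline 2, 4 to 9 without any other mouse, and 11 without composition factors. Glul, the glutamine synthetase gene, was at 371, 327, 690, 711 and 560 CPM in saline mice and 1497, 1712, 1278, 1160 and 1249 CPM in CD95-Ab mice, with no overlap. Its mean rose from 532 to 1379 CPM, a log2 fold change of 1.37 ± 0.24 (SE) with an FDR of 0.000588 in edgeR, while the Wnt readout Axin2 was lower. The log2 ratio of Glul to Axin2 was higher by 2.95 ± 0.58 (SE) in CD95-Ab mice, as a description. Slc13a3, a dicarboxylate transporter gene, also rose (log2 fold change 1.5, FDR = 5.18e-05). By contrast, Cyp7a1, the rate-limiting enzyme gene of bile acid synthesis, fell from 50.02 ± 13.0 to 1.11 ± 0.637 CPM (log2 fold change -5.46, FDR = 1.38e-06), and Cyp2e1, an ethanol-oxidising cytochrome gene, fell by 0.78 on the log2 scale (FDR = 0.00643). Nr1i3, the nuclear receptor gene CAR, fell by 2.99 on the log2 scale (FDR = 2.06e-05).

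Of 22 tested periportal genes, which mark the opposite end of the lobule, 1 rose and 10 fell. Among all genes tested, 47.3% passed, 25.4% higher and 22.0% lower. The periportal genes that fell included the glucose-6-phosphatase gene G6pc (log2 fold change -4.16, FDR = 1.53e-05 in edgeR) and Uroc1, a histidine catabolism gene (-0.93, FDR = 0.000811). The median log2 fold change was -0.40 over the pericentral and -0.63 over the periportal list, beside -0.40 over the 10 hepatocyte markers and 0.01 over all genes tested. Over all 9 pathway and zonation lists, each gene counted once, 22 of 118 tested genes rose and 34 fell, or 47.5% called beside the 47.3% of all genes.

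**Figure D5:**
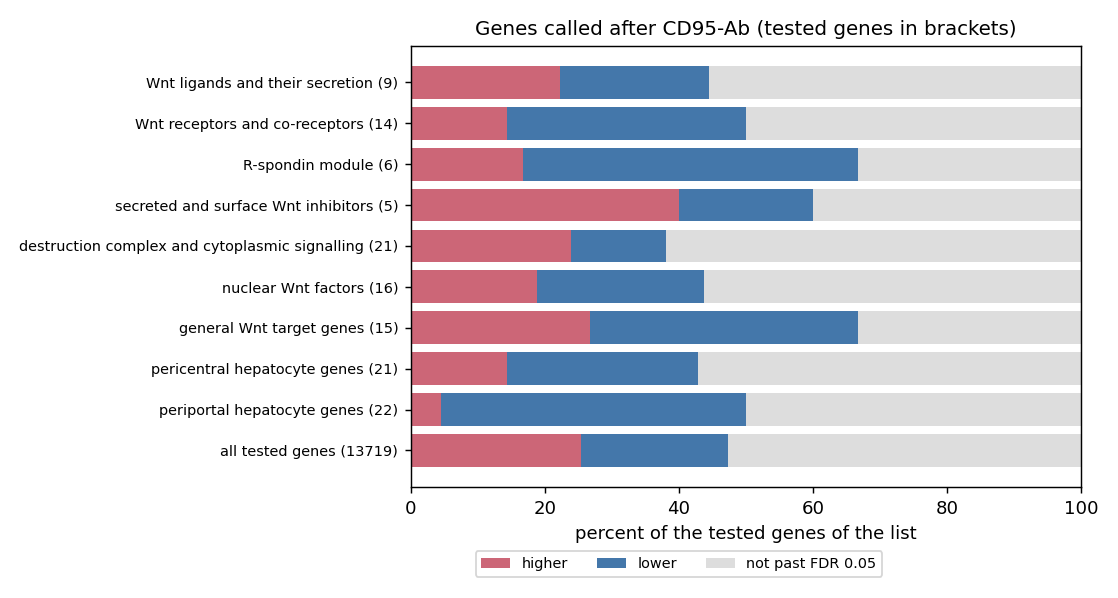
Share of the tested genes of each pathway or zonation list that were higher (red), lower (blue) or not past an FDR of 0.05 (grey) in CD95-Ab against saline mice, with the number tested in parentheses. Shares called lay between 38.1% for the destruction complex and 66.7% for the R-spondin module and the general Wnt targets.

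Genes whose log2 level ran most like each of the 9 over the 10 mice were listed as a description, since the group difference itself enters these correlations. For Rspo3 they were Medag, Fam78b and Arhgap31 (Pearson r of 0.99 each), for Rnf43 Rcor3, Stx17 and Prkd3 (0.98 to 0.99), for Axin2 Zfp317, Taf6 and Pllp (0.95 to 0.97) and for Tbx3 Zbtb7b, Cyp8b1 and 0610040B10Rik (0.96 to 0.97). For Znrf3 they were Ammecr1l, Zfp729b and Shprh (0.94 to 0.95), for Lgr5 Aatk, Tecpr2 and Mbd5 (0.87 to 0.93) and for Lhpp Srsf4, Mrpl41 and Arrdc2 (0.94 to 0.96). Wnt2 ran most like R3hcc1l, Acsm2 and Gm45837 (0.92 to 0.95), and Wnt9b, the least abundant, like Gm10392, Ufsp2 and Helz (0.84 to 0.89).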

How the data were processed

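Liver RNA of 10 male mice was sequenced, 5 injected with saline and 5 with CD95-Ab, as given by the sample labels. The expected counts that the authors deposited were made with RSEM version 1.2.19, are not normalized and were whole numbers for 100% of values. The FPKM that the authors deposited are scaled for transcript length and library total and served only to order genes by level. For the counting, the study's methods name a human Gencode release, whereas the deposited identifiers are mouse Ensembl genes. The mouse annotation and build, and strand handling, are not given in the sources used here. How reads shared by overlapping genes entered these whole-number values is not given either. Identifiers were matched to GENCODE mouse release 21 (GRCm38) for symbols and positions.

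Genes were kept with filterByExpr (minimum count of 10), scaled with TMM factors and fitted in edgeR 4.0.16 (R 4.3.3), where a model holding group alone gave a quasi-likelihood test. DESeq2 1.42.0 was an alternative. FDR values are Benjamini-Hochberg adjusted p-values over the 13719 genes tested, and calls are at 0.05. Ratios and marker sums were compared with exact two-sided permutation tests, for which 5 against 5 mice can reach 0.00794 at the lowest, on log2(CPM + 0.1) for ratios. Python 3.11.15 with scipy 1.17.1 and pandas 2.3.3 handled the tables, and the code was tested on simulated counts. Mice are biological replicates per the labels. The 9 pathway and zonation lists, the marker lists and the genes described were chosen with earlier results of these data known, so no list is independent evidence of a direction. Genes outside the 9 were named by a rule: Glul, Cyp2e1, Ctnnb1, Tcf7l2 and Lgr4, up to 3 genes per list and direction with the lowest FDR, and the 3 genes most alike each of the 9. Thbd, Cdh13, Kit, Lyve1 and Cdh5 are named as markers.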

Additional observations from a re-analysis of the deposited data

Results flagged for a closer look

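A single mouse lay far from the other 4 of its group for 2 of 49 named genes, each checked in both groups, by Dixon's test with a critical value of 0.71 for 5 mice. In both cases it was saline 5. Ctnnb1 was at 76.9 CPM in that mouse and at 152 to 176 CPM in the other saline mice, and Lgr4 was at 44.8 CPM against 57.9 to 63.9 CPM. Chance flags about 1 in 20 groups, and 98 groups were checked. Over the counts of all genes tested, saline 5 lay at a chi-square per degree of freedom of 242 to 575 from the other saline mice. Those mice lay at 41.0 to 192 from one another, and CD95-Ab mice at 105 to 432. Saline 5 also had the deepest library, 62097636 counts, and the part of depth in this distance was not tested. Without saline 5 the log2 fold change was 0.04 for Ctnnb1 (FDR = 0.822 in edgeR) and -0.66 for Lgr4 (FDR = 0.00924).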

How the results depend on the processing

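Among the 9 genes, 2 were called higher with DESeq2 and with edgeR's likelihood ratio test (1 in the reported fit), and leaving out each mouse in turn gave 1 to 2 called higher and 2 to 5 lower. At an FDR of 0.01, 2 were called lower, and 13 pathway genes higher. Leaving out a mouse gave 17 to 24 pathway genes higher and 25 to 39 lower. The number of marker ratios that passed was 0 as reported, 3 lower with a pseudocount of 1, and 0 to 1 in each direction when a mouse was left out. It was 5 lower when Thbd, Cdh13 and Kit replaced the sinusoidal markers for Rspo3, Wnt2 and Wnt9b. That number includes ratios to hepatocyte markers, adjusted together with these, and the replacement was added after the data were seen. The labels state no pairing of mice by replicate number. Same-numbered mice had correlations of -0.274 to 0.257, and 2 of 5 saline mice were closest to their own number. These values cannot decide whether the mice were paired. When a block for the replicate number was fitted, the marker lists called went from 7 higher and 1 lower to 0 and 0, since the smallest p of that sign-flip test is 0.0625; 5987 genes were called against 6495, and Axin2 and Znrf3 stayed called. Directions that turned were those of Wnt2 (-0.0050 without composition factors, -0.23 to 0.46 when a mouse was left out), Wnt9b (-0.76 to 0.10), and the ratios to hepatocyte markers of Lhpp (-0.13 to 0.13) and Znrf3 (-0.40 to 0.0086). The ratio of Rspo3 was 0.23 against sinusoidal markers, from which no direction is read, and -1.37 against the 3 central vein markers. In single lists, leaving out a mouse gave 1 to 2 receptor genes higher (1 without saline 2, saline 4, CD95-Ab 1, CD95-Ab 3 or CD95-Ab 5), 1 to 2 ligand genes lower (1 without saline 3, CD95-Ab 2, CD95-Ab 3 or CD95-Ab 4), 1 to 2 inhibitor genes lower (2 without saline 5, CD95-Ab 3 or CD95-Ab 5), 1 to 3 R-spondin module genes lower (1 without CD95-Ab 2) and 0 to 1 periportal genes higher (0 without saline 3, saline 4, CD95-Ab 1, CD95-Ab 2 or CD95-Ab 5). With at least 10 counts required in every mouse, Axin2, Wnt2 and Wnt9b were not tested. Depth limits Wnt9b most, at 4 to 43 counts per mouse. The cause of these shifts was not tested, apart from the sign-flip limit.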
